A study of Mus musculus with 8 samples.

Results

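Matrix metalloproteinases and their inhibitors were followed by RNA sequencing in ventricular cardiomyocytes of adult mice. Of 8 libraries, 4 came from cultures kept for 24 hours in CCR2+ cardiac macrophage-conditioned medium and 4 from cultures kept as long in control M199 medium. The genes were chosen by name, as a family of 5 proteinases (Mmp2, Mmp3, Mmp8, Mmp14 and Mmp15) and 5 inhibitors (Timp1, Timp2, Timp3, Timp4 and Reck), and the list was drawn up with earlier results of these libraries known. Of the 10 genes, 9 were measured, among 11367 gene entries in all, and Timp4 was not analysed here. Levels are in FPKM, that is, sequenced fragments scaled to transcript length and library size. The table held genes whose mean reached 0.5 FPKM in 1 group or both, and that value decided which family members could be seen. Of the 9, 8 reached that mean in both groups, whereas Mmp8 reached it only in conditioned medium (0.976 FPKM in conditioned medium and 0.456 FPKM in control medium), so its difference was partly fixed by the filter and is given as a description. The member nearest the limit among the others was Reck (0.853 FPKM in conditioned medium and 0.603 FPKM in control medium).

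The cardiomyocytes of both groups came from C57BL/6 mice. The macrophages that conditioned the medium were sorted from hearts of Ccr2gfp/+ mice, which carry GFP in place of a single Ccr2 allele, 4 weeks after transverse aortic constriction (TAC), an operation that narrows the aorta and overloads the left ventricle. Those macrophages spent 24 hours in M199, a defined culture medium, and were not added to the cardiomyocytes. All cardiomyocyte cultures received (-)-Blebbistatin, a myosin inhibitor that stops contraction, with insulin-transferrin-selenium (ITS) and a lipid supplement (CD lipid). Fetal bovine serum is named for the macrophage medium and not for the control medium, so any effect of serum cannot be told apart from that of conditioning. Whether each library stands for its own animal is not stated. A p value here reflects only how far these libraries differ from one another, and such differences may be technical.

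Matrix metalloproteinases (MMPs) are zinc-dependent endopeptidases that cut the proteins of the extracellular matrix, and most are secreted as inactive precursors whose propeptide must be removed. Tissue inhibitors of metalloproteinases (TIMPs) bind the active site of the enzymes, and RECK is a membrane-anchored inhibitor. In the heart the balance of MMPs and TIMPs is known for its role in remodeling of the matrix after infarction and under pressure overload, and fibroblasts, endothelial cells and leukocytes are among the cells that make these proteins. All MMPs share a catalytic helix, HEXXHXXGXXH, in which the 3 histidines hold the zinc ion. The codons of that helix are shown because they are the feature that joins the 5 proteinases measured. They were read from GENCODE M21 transcripts on GRCm38, 5′ to 3′ on the coding strand, and the capitals mark the codons of the fixed residues His, Glu, His, Gly and His.
Mmp3, exon 5 of 10, chr9:7449775-7449807, + strand: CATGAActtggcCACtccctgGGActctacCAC
Mmp8, exon 5 of 10, chr9:7563086-7563118, + strand: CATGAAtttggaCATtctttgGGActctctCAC
Mmp2, exon 8 of 13, chr8:92839279-92839311, + strand: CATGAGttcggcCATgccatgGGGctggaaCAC
Mmp14, exon 5 of 10, chr14:54437627-54437659, + strand: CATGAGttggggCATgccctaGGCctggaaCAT
Mmp15, exon 5 of 10, chr8:95368585-95368617, + strand: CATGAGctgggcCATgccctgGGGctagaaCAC
Of these 33 bases, Mmp8 shared 26 with Mmp3, Mmp15 shared 25, Mmp2 shared 23 and Mmp14 shared 21. In Mmp2 the helix was encoded in exon 8 of 13, and in the others in exon 5 of 10.

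Mmp3 and Mmp8 lie close together on chromosome 9, in a cluster that also holds Mmp12 and Mmp13, and these were the 4 cluster genes measured. The stretch upstream of their start sites was searched in RefSeq windows (GRCm38.p6) that run from 250 bases before to 50 bases after each start, for TGAGTCA, the letters bound by AP-1 factors, on both strands. A window was found for 8 of the 9 genes measured. Of these 8, Mmp3 was the only gene with the letters, which stood 46 bases before its start. Mmp13 had them 35 bases before its start as the reverse complement TGACTCA, and Mmp12 had them 44 bases before its downstream start and not in the window of its upstream start. No match was found in the window of Mmp8. Of all 32851 windows, 5.2% held the letters, and a match is a description of the sequence, not of binding. The 3 stretches with a match are shown up to the base before the start site, with the matched letters in capitals.
Mmp3 upstream stretch, chr9:7445731-7445821, + strand: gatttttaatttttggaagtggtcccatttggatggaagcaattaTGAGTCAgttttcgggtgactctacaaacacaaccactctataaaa
Mmp12 upstream stretch, chr9:7347285-7347373, + strand: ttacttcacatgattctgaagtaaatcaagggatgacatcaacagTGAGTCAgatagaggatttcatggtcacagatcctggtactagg
Mmp13 upstream stretch, chr9:7272434-7272513, + strand: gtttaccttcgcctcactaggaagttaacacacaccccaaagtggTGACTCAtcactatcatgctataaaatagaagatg

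The test of the media was limma, with an adjusted p of 0.05 as the threshold. Over all genes, 63 of 11367 rose in conditioned medium (0.554%) and 0 fell (0%). At an unadjusted p under 0.05, 998 were higher and 96 lower, and by the F test with a library-size term 0 passed in either direction. All 10 cardiomyocyte markers were measured, and their summed level ran from 2613 to 6525 FPKM in conditioned medium and from 5047 to 8193 FPKM in control medium. Of the 10, 0 had a positive log2 fold change (median -0.48), and 0 were lower at an unadjusted p under 0.05 with limma. Markers of other heart cells were present in every library. The library of conditioned-medium replicate 4 stood apart, with 63.0% of its FPKM on mitochondrially encoded genes, compared with 30.8% to 35.1% in the other conditioned-medium libraries and 30.2% to 40.7% in the control libraries. It also had the lowest cardiomyocyte marker sum, and differences that rest on it are given with and without it. In these bulk libraries, fewer cells of a type and less RNA per cell cannot be told apart.

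In the limma fit of medium alone on all 8 libraries, no member of the family passed. There 0 of 9 members were past the threshold upward and 0 downward, against a background of 0.554% and 0%. At an unadjusted p under 0.05, 4 members were higher (Mmp3, Mmp8, Timp1 and Timp3) and 0 lower, whereas 8.78% of all genes were higher. The F test called 0 members in either direction. Other fits of the same libraries did call members, and with array weights, which give libraries unequal weight, Mmp3 (adjusted p = 0.00129) and Timp1 (adjusted p = 0.0264) were past the threshold. That fit called many more genes in all, with 882 of 11367 higher and 51 lower, so such calls are not particular to the members. The log2 fold change was positive for 8 of 9 members, with a median of 0.39, whereas it was positive for 53.9% of all genes, whose median was 0.024. In 2 members, Mmp3 and Mmp8, the 4 conditioned-medium libraries all lay above the 4 control libraries, a pattern found in 5.08% of all genes. The opposite pattern was found in 1.46% of all genes and in no member. Because the family was picked with these results known and Mmp8 owed its place to the filter, these counts describe the members and do not test them.

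**Figure D1:**
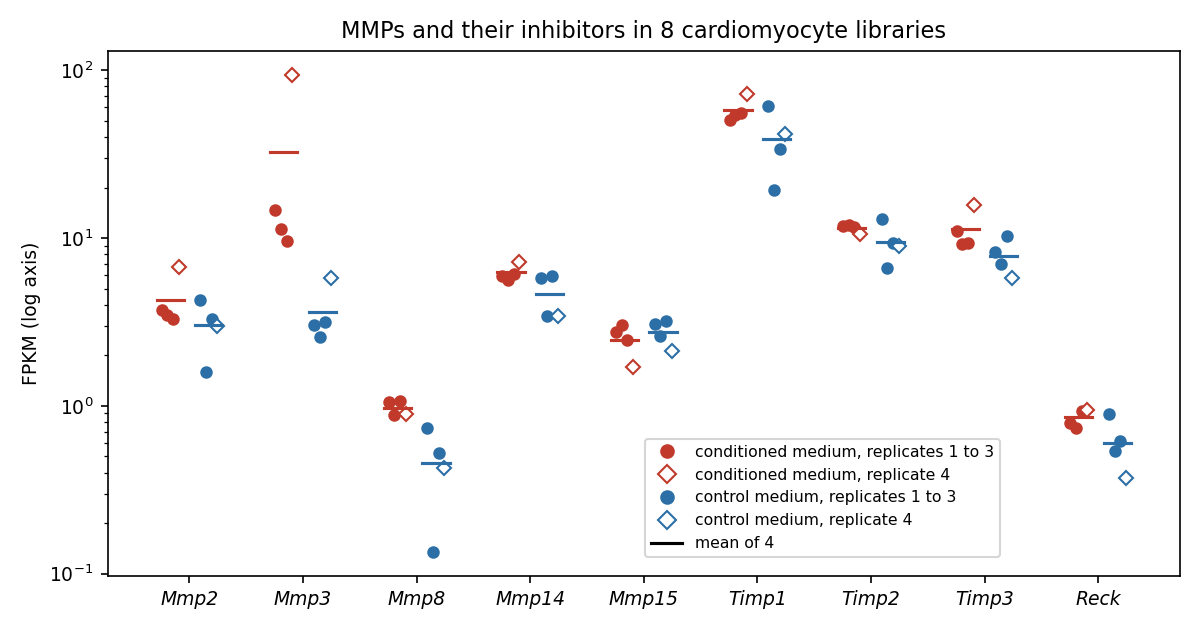
Level of each measured member in FPKM (log axis), with conditioned medium in red on the left and control medium in blue on the right of each gene. Each point is a library, open diamonds are replicate 4 of each group and bars are means of 4. The Mmp3 libraries of conditioned medium lie between 9.65 and 94.2 FPKM, all above the control libraries.

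Mmp3 encodes stromelysin 1, which cuts proteoglycans, fibronectin and basement membrane proteins and can activate other MMPs. Mmp3 (ENSMUSG00000043613.8, chr9:7445822-7455975, + strand) was at 14.6, 11.3, 9.65 and 94.2 FPKM in conditioned-medium replicates 1 to 4, against 3.02, 2.57, 3.15 and 5.75 FPKM in control replicates 1 to 4. The groups did not overlap, and the highest value by far was that of conditioned-medium replicate 4. The mean was 32.4 ± 41.2 FPKM in conditioned medium and 3.62 ± 1.44 FPKM in control medium (SD, n = 4 each), a ratio of 8.96. Without replicate 4 the conditioned-medium mean was 11.9 ± 2.53 FPKM (SD, n = 3). On the log2(FPKM + 1) scale the fold change was 2.23 ± 0.56 (SE), with a 95% interval of 0.998 to 3.47. The unadjusted p from limma was 0.00201 and the adjusted p 0.183. By this fold change Mmp3 stood in place 6 of 11367 genes, and by p in place 125.

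The call for Mmp3 depended on the fit and on which libraries entered it. With array weights and all 8 libraries its log2 fold change was 1.61 and its adjusted p 0.00129, in a fit that called 882 of 11367 genes higher. With a block for replicate number its log2 fold change was 2.23 and its adjusted p 0.0484, and 69 genes were higher. Without conditioned-medium replicate 4 its log2 fold change was smaller, 1.51, and its adjusted p was 0.0161 with limma, past the threshold. Leaving out another library in turn kept the log2 fold change between 2.12 and 2.56 and the adjusted p between 0.128 and 0.554, the highest of these without control replicate 2. When control replicates 2 and 4 were both left out, the log2 fold change was 2.36 and the adjusted p 0.968. Conditioned-medium replicate 4 exceeded the next conditioned-medium library by 2.61 on the log2 scale for Mmp3, the third largest such excess among 11367 genes.

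Mmp8 encodes neutrophil collagenase, an enzyme of fibrillar collagen best known from neutrophil granules. Mmp8 (ENSMUSG00000005800.3, chr9:7558456-7568485, + strand) was at 1.06, 0.883, 1.06 and 0.899 FPKM in conditioned-medium replicates 1 to 4, and at 0.736, 0.135, 0.525 and 0.429 FPKM in control replicates 1 to 4. The groups did not overlap, though both were near the lower limit of the table. The fitted log2 fold change was 0.46 ± 0.14 (SE) with a pseudocount of 1 FPKM and 1.09 with a pseudocount of 0.1 FPKM. Among 12 neutrophil markers looked for, 0 had an entry among the genes analysed here.

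Mmp2 encodes gelatinase A, which degrades denatured collagen and type IV collagen. Mmp2 (ENSMUSG00000031740.8, chr8:92827291-92853420, + strand) was at 3.72, 3.49, 3.28 and 6.71 FPKM in conditioned-medium replicates 1 to 4, and at 4.26, 1.60, 3.28 and 3.002 FPKM in control replicates 1 to 4. The groups overlapped, with the highest value in conditioned-medium replicate 4 and the lowest in control replicate 2. The log2 fold change was 0.39 ± 0.25 (SE), with a 95% interval of -0.15 to 0.94 and an adjusted p of 0.668 with limma. It was 0.20 without conditioned-medium replicate 4 and 0.20 without control replicate 2.

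Mmp14 and Mmp15 encode membrane-type MMPs that act at the cell surface, and MMP14 is the main activator of pro-MMP2 in a complex with TIMP2. Mmp14 (ENSMUSG00000000957.11, chr14:54431612-54445364, + strand) was at 5.97, 5.63, 6.14 and 7.23 FPKM in conditioned-medium replicates 1 to 4, and at 5.77, 3.44, 5.97 and 3.45 FPKM in control replicates 1 to 4. Control replicates 2 and 4 were low and the other control libraries were within the conditioned-medium range. The log2 fold change of Mmp14 was 0.39 ± 0.20 (SE), with a 95% interval of -0.046 to 0.82 and an adjusted p of 0.573 with limma. With control replicates 2 and 4 left out, the log2 fold change of Mmp14 was 0.070.

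Mmp15 (ENSMUSG00000031790.8, chr8:95352268-95375080, + strand) was at 2.74, 3.03, 2.45 and 1.71 FPKM in conditioned-medium replicates 1 to 4, and at 3.09, 2.62, 3.22 and 2.11 FPKM in control replicates 1 to 4. It was the only measured member with a negative log2 fold change, -0.11 ± 0.17 (SE), and its groups overlapped widely (95% interval -0.50 to 0.27, adjusted p = 0.856 with limma). The sign rested on conditioned-medium replicate 4, the lowest library, since the log2 fold change was 0.0010 without it.

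Timp1 encodes a secreted inhibitor of most soluble MMPs and was the most abundant member in both groups. Timp1 (ENSMUSG00000001131.11, chrX:20870166-20874735, + strand) was at 50.4, 54.3, 55.4 and 71.8 FPKM in conditioned-medium replicates 1 to 4, and at 60.9, 19.3, 33.8 and 41.8 FPKM in control replicates 1 to 4. Control replicate 1 lay above 3 of the 4 conditioned-medium libraries, and control replicate 2 was the lowest of all. The mean was 58.0 ± 9.47 FPKM in conditioned medium and 38.9 ± 17.3 FPKM in control medium (SD, n = 4 each). The log2 fold change was 0.66 ± 0.29 (SE), with a 95% interval of 0.021 to 1.30, an unadjusted p of 0.0439 and an adjusted p of 0.508 with limma. Without control replicate 2 the log2 fold change was 0.37, and without conditioned-medium replicate 4 it was 0.55.

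Timp2 encodes the inhibitor that also takes part in activation of pro-MMP2. Timp2 (ENSMUSG00000017466.9, chr11:118301069-118355740, - strand) was at 11.86, 11.96, 11.63 and 10.55 FPKM in conditioned-medium replicates 1 to 4, and at 12.97, 6.58, 9.40 and 8.94 FPKM in control replicates 1 to 4. The conditioned-medium libraries were close together, with a coefficient of variation of 5.61%, compared with 27.8% in control medium, and control replicate 1 was the highest of the 8. For Timp2 the log2 fold change was 0.29 ± 0.19 (SE), with a 95% interval of -0.14 to 0.71 and an adjusted p of 0.697 with limma, and it was 0.14 without control replicate 2.

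Timp3 encodes a matrix-bound inhibitor that also inhibits ADAM proteases. Timp3 (ENSMUSG00000020044.13, chr10:86300372-86349506, + strand) was at 10.97, 9.20, 9.37 and 15.8 FPKM in conditioned-medium replicates 1 to 4, and at 8.22, 7.03, 10.2 and 5.77 FPKM in control replicates 1 to 4. The groups overlapped through control replicate 3, with the highest value again in conditioned-medium replicate 4. For Timp3 the log2 fold change was 0.48 ± 0.22 (SE), with a 95% interval of 0.0063 to 0.95, an unadjusted p of 0.0475 and an adjusted p of 0.517 with limma, and it was 0.32 without conditioned-medium replicate 4.

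Reck (ENSMUSG00000028476.13, chr4:43875530-43944806, + strand), the membrane-anchored inhibitor, was at 0.793, 0.733, 0.937 and 0.950 FPKM in conditioned-medium replicates 1 to 4, and at 0.889, 0.535, 0.614 and 0.374 FPKM in control replicates 1 to 4. The groups overlapped through control replicate 1. For Reck the log2 fold change was 0.22 ± 0.13 (SE), with a 95% interval of -0.064 to 0.50 and an adjusted p of 0.635 with limma.

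**Figure D2:**
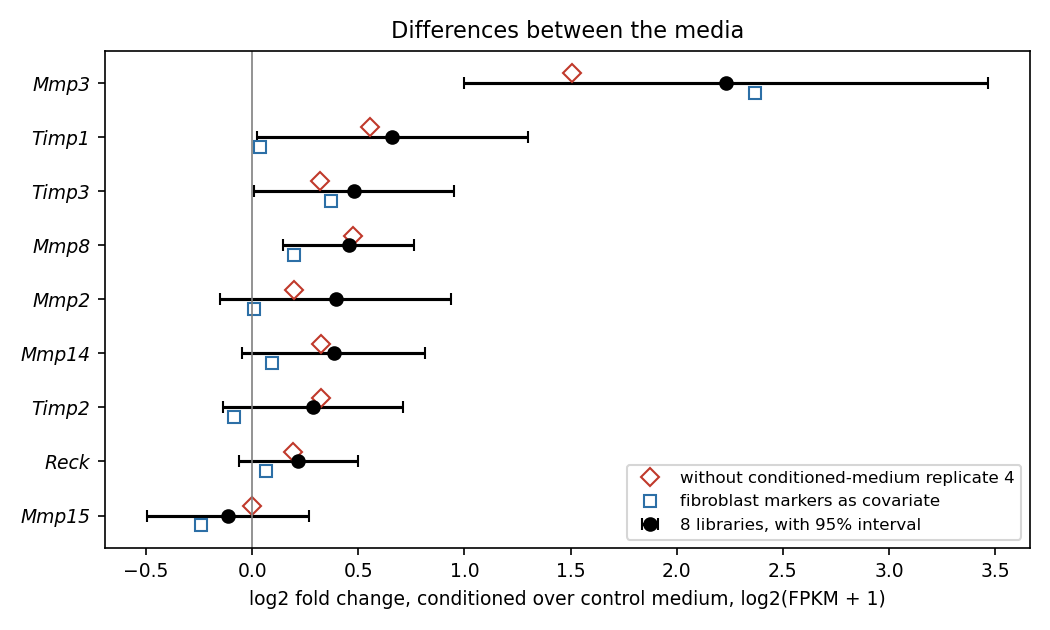
Log2 fold change of each measured member, conditioned over control medium, on the log2(FPKM + 1) scale. Black points with bars are the 8-library fit with its 95% interval, red diamonds the fit without conditioned-medium replicate 4 and blue squares the fit with the fibroblast marker mean as a covariate. Mmp3 is at 2.23, 1.51 and 2.37 in these fits, and Timp1 at 0.66, 0.55 and 0.039.

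Since FPKM are scaled to length, gene-level values may be ordered between genes, though the order depends on whether gene or transcript FPKM are read. In conditioned medium the order of mean FPKM was Timp1, Mmp3, Timp2, Timp3, Mmp14, Mmp2, Mmp15, Mmp8 and Reck. In control medium it was Timp1, Timp2, Timp3, Mmp14, Mmp3, Mmp2, Mmp15, Reck and Mmp8. The ranges of neighbors overlapped in conditioned medium except between Timp3 and Mmp14, between Mmp2 and Mmp15 and between Mmp15 and Mmp8. In control medium they overlapped except between Timp1 and Timp2 and between Mmp15 and Reck. The place of Mmp3 moved most, yet it lay above Timp2 in only 2 of 4 conditioned-medium libraries. By mean transcript FPKM, Timp3-201 (19.5 in conditioned medium and 13.4 in control medium) lay above Timp2-201 (12.1 and 9.88). Mmp14-201 (13.9 and 10.3) also lay above Timp2-201, so these 3 genes are ordered otherwise in that reading.

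Summed over the 5 proteinases, the level was 28.1, 24.4, 22.6 and 110.7 FPKM in conditioned-medium replicates 1 to 4, and 16.9, 10.4, 16.1 and 14.7 FPKM in control replicates 1 to 4. Mmp3 made up 52.0%, 46.5%, 42.7% and 85.1% of that sum in conditioned medium, and 17.9%, 24.8%, 19.5% and 39.0% in control medium. By gene-level FPKM the shares did not overlap, and Mmp3 was the most abundant of the 5 in every conditioned-medium library and in control replicate 4. By transcript FPKM, Mmp14-201 (12.5 and 13.7 FPKM) exceeded Mmp3-201 (11.3 and 9.65 FPKM) in conditioned-medium replicates 2 and 3. It also did so in control replicate 4 (7.16 against 5.75 FPKM). Mmp3-201 stayed above Mmp14-201 in conditioned-medium replicates 1 and 4. Without Mmp3 the sum of the other 4 proteinases was 12.9 to 16.5 FPKM in conditioned medium and 7.79 to 13.9 FPKM in control medium.

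The 3 TIMPs measured summed to 73.3, 75.4, 76.4 and 98.2 FPKM in conditioned-medium replicates 1 to 4, and to 82.1, 32.9, 53.4 and 56.5 FPKM in control replicates 1 to 4. The ratio of summed proteinases to summed TIMPs was 0.384, 0.323, 0.296 and 1.13 in conditioned medium, and 0.206, 0.314, 0.302 and 0.261 in control medium. These ratios overlapped, and only conditioned-medium replicate 4 had more proteinase than TIMP transcript. Without Mmp3 the ratio lay between 0.168 and 0.184 in conditioned medium and between 0.159 and 0.243 in control medium. These are sums of transcript levels, and enzyme activity was not measured. The proteinase sums hold the 5 listed MMPs and leave out 5 further MMPs that were measured. Among those was Mmp12, at 5.36 to 10.9 FPKM in conditioned medium and 0.997 to 5.79 FPKM in control medium.

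**Figure D3:**
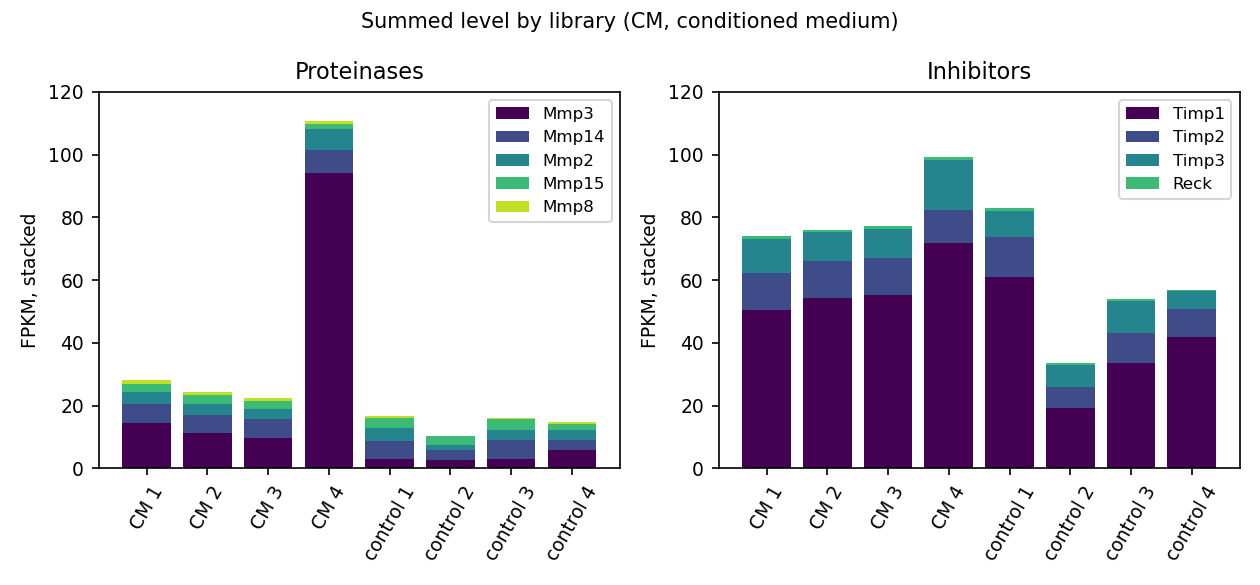
Stacked FPKM of the 5 listed proteinases (left, without the further MMPs measured) and the 4 measured inhibitors (right) in each library, with conditioned medium (CM) replicates 1 to 4 left of control replicates 1 to 4. Mmp3 makes up 42.7% to 85.1% of the proteinase sum in conditioned medium and 17.9% to 39.0% in control medium, and CM 4 is the only library whose proteinase sum (110.7 FPKM) exceeds its TIMP sum (98.2 FPKM).

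At the transcript level, 13 of 21301 transcripts rose (0.0610%) and 1 fell (0.00469%) in the limma fit of that table. The members had 9 transcripts measured, from 8 genes and none of them of Reck, and 0 of the 9 passed in either direction. At an unadjusted p under 0.05, 3 of them (Mmp3-201, Mmp8-201 and Timp1-201) were higher. The share of all transcripts at that p is not given here, so this count is a description, and Mmp8-201 has the filter limit of Mmp8. Mmp3 and Mmp8 each had a single transcript, whose FPKM equaled that of the gene. Mmp14-201 was at 2.08 to 2.25 times the FPKM of its gene and Timp3-201 at 1.71 to 1.72 times. Their levels thus depend on which of the tables is read. The log2 fold change of Mmp14-201 was 0.45, close to that of the gene.

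Timp1 was the only member with more than 1 transcript measured. Both have 6 exons on the X chromosome and share exons 3 to 5, but Timp1-202 starts at position 20870166 and Timp1-201 at 20870221, and their exons 2 start 3 bases apart. Timp1-201 was at 19.4, 21.8, 23.6 and 29.9 FPKM in conditioned-medium replicates 1 to 4, and at 23.9, 3.57, 16.4 and 6.68 FPKM in control replicates 1 to 4. Timp1-202 made up 62.6%, 60.9%, 58.6% and 59.5% of the summed Timp1 transcripts in conditioned medium, and 61.8%, 81.8%, 53.0% and 84.2% in control medium. The shares were close together in conditioned medium and spread widely in control medium, where replicates 2 and 4 had the least Timp1-201. The mean share was 60.4% ± 1.75 in conditioned medium and 70.2% ± 15.3 in control medium (SD, n = 4 each), a difference of -9.79 percentage points with p = 0.343 in a two-sided exact permutation test over 70 arrangements, whose smallest possible p is 0.0286.

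Timp1 lies within Syn1 and Timp3 within Syn3, both on the opposite strand, and neither Syn1 nor Syn3 had an entry among the genes analysed here. The libraries were made with a stranded kit, but whether strand was used in counting is not given in the sources used here, so reads of these pairs may not have been told apart. Timp2 overlaps Cep295nl on the same strand, which also had no entry.

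Of 18 further MMPs looked for, 5 were measured, and 0 passed the limma threshold in either direction. At an unadjusted p under 0.05, 2 of the 5 were higher, whereas 8.78% of all genes were. Mmp13, another collagenase, was at 0.955, 1.22, 1.32 and 2.71 FPKM in conditioned-medium replicates 1 to 4, and at 0.742, 0.378, 0.814 and 0.639 FPKM in control replicates 1 to 4. Its groups did not overlap, and its log2 fold change was 0.60 ± 0.19 (SE, adjusted p = 0.351) and 0.40 without conditioned-medium replicate 4. Mmp12, the macrophage elastase, was at 5.36, 6.98, 6.38 and 10.9 FPKM in conditioned-medium replicates 1 to 4, and at 3.13, 0.997, 5.13 and 5.79 FPKM in control replicates 1 to 4. Its groups overlapped through control replicate 4, with a log2 fold change of 0.92 ± 0.35 (SE, adjusted p = 0.436), and 0.74 without conditioned-medium replicate 4. The mean FPKM of the 4 cluster genes on chromosome 9 was higher in conditioned medium by a ratio of 8.96 for Mmp3, 2.41 for Mmp13, 2.14 for Mmp8 and 1.97 for Mmp12. Without conditioned-medium replicate 4 these ratios were 3.28 for Mmp3, 1.81 for Mmp13, 2.19 for Mmp8 and 1.66 for Mmp12. The remaining log2 fold changes were 0.25 for Mmp19, 0.12 for Mmp11 and -0.10 for Mmp23, and the signs for Mmp11 and Mmp23 turned in some alternatives. Mmp23 reached 0.5 FPKM as a mean only in control medium, so its difference is a description.

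Other genes of the pathway were read from lists written from general knowledge. Of 13 measured genes for activation of MMPs and the plasminogen system, 0 passed the limma threshold in either direction (4 higher unadjusted), and 11 had a positive log2 fold change (median 0.38, range -0.29 to 0.70). Of all genes, 8.78% were higher unadjusted and 53.9% had a positive log2 fold change. Plau, which encodes urokinase, was at 8.98, 12.03, 11.84 and 20.3 FPKM in conditioned-medium replicates 1 to 4, and at 8.002, 6.86, 8.71 and 6.91 FPKM in control replicates 1 to 4. The groups did not overlap (log2 fold change 0.68 ± 0.22, SE, adjusted p = 0.363). Without conditioned-medium replicate 4 it was 0.47. Serpinb2, which encodes an inhibitor of urokinase, averaged 1.18 FPKM in conditioned medium and 0.449 FPKM in control medium, and since it reached the limit of the table only through conditioned medium, its difference is a description, as for Mmp8, though it is among the 4 counted above. Bsg, which encodes the MMP inducer basigin, had the highest level of the list and a log2 fold change of -0.29 (adjusted p = 0.705).

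Of 13 measured ADAM and ADAMTS proteases, some of which are also inhibited by TIMP3, 0 passed in either direction by limma (5 higher unadjusted), and 12 had a positive log2 fold change (median 0.30). The shares over all genes were 8.78% higher unadjusted and 53.9% with a positive log2 fold change. The proteoglycan-cutting enzyme Adamts9 did not overlap between the groups, with a log2 fold change of 0.51 and an adjusted p of 0.265. Adamts4, another such enzyme, averaged 1.20 FPKM in conditioned medium and 0.472 FPKM in control medium, and it too entered the table only through conditioned medium and is among the 5. Adam9, the most abundant, was at 0.048. Among 16 measured surface partners and clearance receptors, 0 passed in either direction by limma and the median log2 fold change was 0.29. Of the 16, 2 were higher unadjusted (12.5%, against 8.78% of all genes). In that list Itgb3, the integrin beta 3 chain, was at 0.72 (adjusted p = 0.372, and 0.59 without conditioned-medium replicate 4), Lrp1, a receptor that clears MMP and TIMP complexes, at 0.63 (adjusted p = 0.458), and Itgb1, the most abundant, at 0.035.

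Among 29 measured matrix substrates, 1 rose, 0 fell and 26 had a positive log2 fold change (median 0.37, range -0.45 to 1.22). Of all genes 0.554% rose, 0% fell and 53.9% had a positive log2 fold change. Among the 26, 1 reached 0.5 FPKM as a mean only in conditioned medium, so its sign was partly fixed by the filter. The gene that rose was Dcn, which encodes the collagen-binding proteoglycan decorin. Dcn was at 10.1, 12.5, 12.6 and 13.5 FPKM in conditioned-medium replicates 1 to 4, and at 7.08, 2.72, 4.96 and 4.58 FPKM in control replicates 1 to 4, with a log2 fold change of 1.22 ± 0.23 (SE) and an adjusted p of 0.0336 with limma. Lum, which encodes the related proteoglycan lumican, also did not overlap (log2 fold change 1.11, adjusted p = 0.0921, and 1.25 with an adjusted p of 0.0396 without conditioned-medium replicate 4). Sparc, with the highest level of these, was at a log2 fold change of 0.54 (adjusted p = 0.591), and of 0.31 without conditioned-medium replicate 4. The Dcn call held in 3 of 19 alternatives and was lost in 16, with a log2 fold change of 0.75 to 1.40 and an adjusted p of 0.000721 to 0.651. It was lost when any library but control replicate 1 was left out (adjusted p 0.0563 to 0.131). Dcn and Lum are fibroblast markers as well, and the fibroblast covariate is a mean that includes both. With it the log2 fold change of Dcn was 0.75, but that fit adjusts Dcn partly for itself, so no conclusion is drawn from it.

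The levels of markers of other heart cells varied between libraries. The summed levels of the media overlapped in each of these lists, though only narrowly for the endothelial markers. Of these markers Dcn alone passed the limma threshold, a call lost in most alternatives as given above. The summed level of 15 measured fibroblast markers of 16 was 83.1 to 98.2 FPKM in conditioned medium and 32.96 to 96.2 FPKM in control medium, the lowest in control replicate 2, and 14 of the 15 had a positive log2 fold change (median 0.40). Of 16 endothelial markers all were measured and all had a positive log2 fold change (median 0.71), with a summed level of 327 to 659 FPKM in conditioned medium and 145 to 329 FPKM in control medium. With limma, 12 of these 16 were higher at an unadjusted p under 0.05 and 0 lower, whereas 8.78% of all genes were higher. For 7 of the 16 the conditioned-medium libraries all lay above the control libraries, a pattern found in 5.08% of all genes. Of 16 macrophage markers 11 were measured, in 12 entries because Itgam has 2. Their sum was 156 to 167 FPKM in conditioned medium and 27.3 to 177 FPKM in control medium. All 12 entries had a positive log2 fold change (median 0.51), and only an Itgam entry was at 0 in a library. The 2 Itgam entries reached 0.5 FPKM as a mean only in conditioned medium, as did 1 of the 15 fibroblast markers. The signs of these entries were thus partly fixed by the filter. The sum of 10 mural cell markers was 85.7 to 155 FPKM in conditioned medium and 120 to 190 FPKM in control medium. Of these 10, 8 had a positive log2 fold change (median 0.48), and for 1 of the 8 the sign was partly fixed by the filter in the same way. The sum of 4 measured mesothelial markers of 6 was 4.27 to 13.6 FPKM in conditioned medium and 0.560 to 7.19 FPKM in control medium. All 4 had a positive log2 fold change (median 0.79), and Upk1b was at 0 in control replicate 4. At the unadjusted p used for the endothelial markers, 3 of 15 fibroblast, 2 of 12 macrophage, 3 of 10 mural and 3 of 4 mesothelial entries were higher. By the same p 1 mural cell marker was lower, and 0 in the other 3 lists. Groups without overlap, higher in conditioned medium, were found for 3 fibroblast markers and 0 entries of the macrophage, mural and mesothelial lists.

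Control replicate 1 was the highest and control replicate 2 the lowest library for the fibroblast marker mean and for Timp2, and Timp1 had the same lowest library, with control replicate 1 exceeded only by conditioned-medium replicate 4. With the mean deviation of the fibroblast markers as a covariate, the log2 fold change was 0.039 for Timp1, -0.085 for Timp2, 0.0095 for Mmp2, 0.092 for Mmp14, 0.066 for Reck, -0.24 for Mmp15, 0.20 for Mmp8 and 0.37 for Timp3. For Mmp3 it was 2.37, with an adjusted p of 0.938 in that fit, which has 1 more term for 8 libraries. The covariate itself differed with the medium, at 0.18 to 0.30 in conditioned medium and -0.75 to 0.34 in control medium, where only replicate 1 was positive. The fit with it therefore cannot tell the medium and the fibroblast markers apart. The parts of fibroblasts and of the endothelial, macrophage and mesothelial markers in these differences were not tested.

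**Figure D4:**
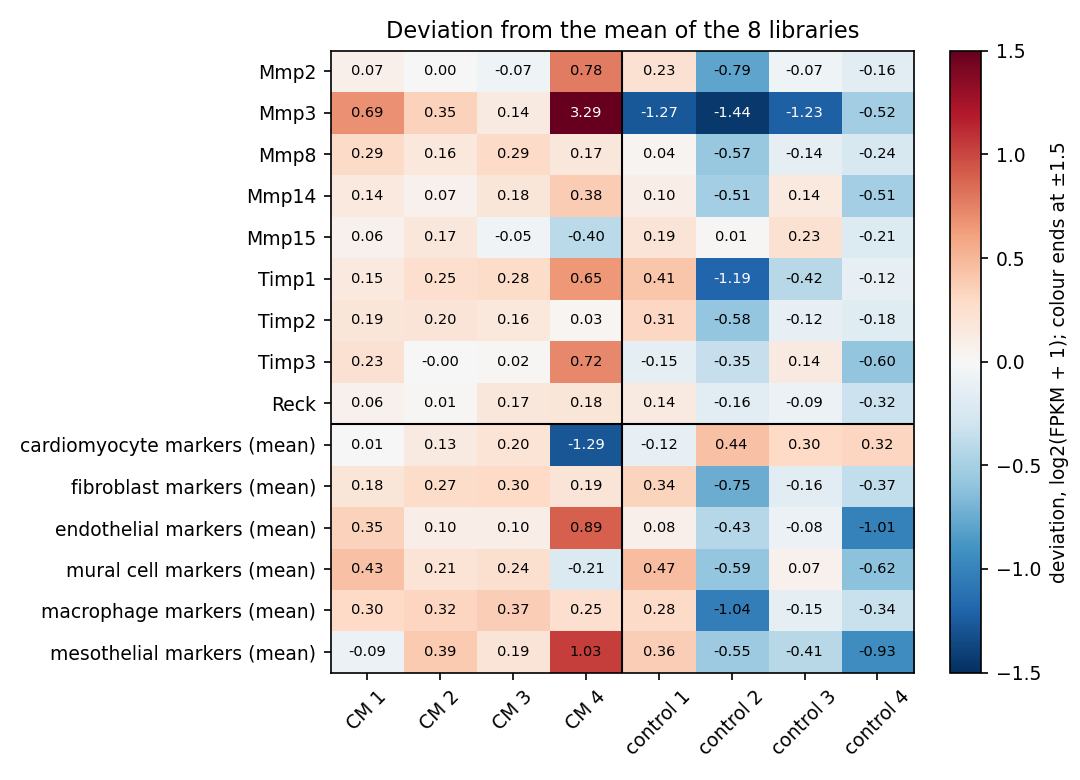
Deviation of each member, and of the mean of each marker list, from its mean over the 8 libraries on the log2(FPKM + 1) scale, with conditioned medium (CM) left and control medium right. Mmp3 is at 3.29 in CM 4 and at -1.44 in control replicate 2, and cardiomyocyte markers are at -1.29 in CM 4. Colors end at 1.5 in either direction.

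The genes whose levels ran most like those of a member over the 8 libraries were found by Pearson correlation of log2(FPKM + 1) and are given as a description, since all points share the same libraries and their cell makeup. For Mmp3 they were Prl2c3 (r = 0.980), S100a16 (r = 0.976) and Pdpn (r = 0.973). Pdpn, which encodes the membrane glycoprotein podoplanin, was at 25.5, 25.7, 28.0 and 96.0 FPKM in conditioned-medium replicates 1 to 4, and at 12.7, 8.08, 14.3 and 13.4 FPKM in control replicates 1 to 4. As for Mmp3, conditioned-medium replicate 4 was far above the rest. For Timp1 they were Smpdl3b (r = 0.982), S100a4 (r = 0.977) and Basp1 (r = 0.977), each lowest in control replicate 2. For Timp3 they were Mfng (r = 0.987), Nova2 (r = 0.984) and Wwtr1 (r = 0.984), and for Mmp8 Lyl1 (r = 0.975), Efna4 (r = 0.970) and Them6 (r = 0.970). Efna4, like Mmp8 itself, entered the table only through conditioned medium, so their likeness was partly fixed by the filter too.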

How the data were processed

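RNA sequencing was done on 4 conditioned-medium and 4 control-medium libraries. The deposited values are FPKM of genes and transcripts, which the authors made by trimming with cutadapt, alignment to GRCm38 with HISAT2, StringTie abundances and Ballgown. For these tools the version, and for the annotation the release, is not given in the sources used here. The depth of a library is unknown from FPKM, and precision was taken from the spread between libraries. Protein-coding entries whose mean reached 0.5 FPKM in 1 group or both were in the tables, and 1 line held no entry and is not reported here. Of the gene IDs, 87.2% had the same version and position in GENCODE M21, including all 9 members measured.

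The media were compared by limma 3.58.1 (R 4.3.3) on log2(FPKM + 1), with trended moderated variances, two-sided p values and Benjamini-Hochberg adjustment over the whole table. The words rose and fell are kept for an adjusted p under 0.05. A fold change on this scale understates the change of low genes. The fit was tested on simulated data.

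The members and the gene lists were chosen with earlier results of these data known. All members are named. Of each other list the text names genes past the threshold, the 2 with the smallest p and the most abundant, and for cell type markers only their sums, Upk1b and Itgam, which were chosen after their values were seen. The 3 genes most like a member are named for the 4 members with the smallest p, with values for Pdpn chosen after they were seen.

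Alternatives were a pseudocount of 0.1, a minimum mean of 2 FPKM, rescaling to nuclear-encoded totals, median-of-ratios size factors, quantile normalization, array weights, summed transcript FPKM, a block for replicate number, Ballgown's F test with its library-size term and leaving out each library in turn. Leaving out control replicates 2 and 4 and adding the fibroblast covariate were chosen after seeing the data.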

Additional observations from a re-analysis of the deposited data

Results flagged for a closer look

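Among 98 groups of 4 libraries checked for members, their transcripts and the named genes of the lists, 8 had a library farther from the others than Dixon's 95% limit. Chance flags about 1 in 20 such groups, and genes measured in the same libraries are not independent. In all 8 the library was conditioned-medium replicate 4. It was the highest of its group for Mmp3 and Mmp3-201 (94.2 FPKM each, with the others at 9.65 to 14.6), for Mmp2 (6.71 FPKM, others 3.28 to 3.72) and Mmp2-201 (7.10 FPKM, others 3.499 to 3.92), and for Timp1-202 (44.0 FPKM, others 32.4 to 34.0). It was also the highest for Itgb3 (4.76 FPKM, others 2.90 to 3.02) and Sparc (187 FPKM, others 94.0 to 108 FPKM). For Pln, which encodes the cardiomyocyte calcium pump regulator phospholamban, it was the lowest (35.9 FPKM, others 89.5 to 95.7).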

How the results depend on the processing

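Of 168 log2 fold changes of members under 19 alternatives, 161 kept their direction and their side of the threshold. Mmp3 passed in 3 alternatives, with array weights (log2 fold change 1.61, adjusted p = 0.00129), with the replicate block (2.23, adjusted p = 0.0484) and without conditioned-medium replicate 4 (1.51, adjusted p = 0.0161), and its adjusted p over all alternatives ran from 0.00129 to 0.968. With array weights 3 members were counted higher, the others being Timp1 (0.83, adjusted p = 0.0264) and Mmp8 (0.51, adjusted p = 0.0211), whose difference is partly fixed by the filter and is no support. The adjusted p ran from 0.0264 to 0.982 for Timp1 and from 0.0211 to 0.968 for Mmp8. With 1 library left out, the log2 fold change ran from -0.20 to 0.0010 for Mmp15 and from -0.20 to 0.0016 for Mmp15-201, positive only without conditioned-medium replicate 4. For Timp2 it was -0.085 with the fibroblast covariate. The causes were not tested.

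Replicate numbers did not visibly pair the libraries. The correlations of same-numbered deviations were 0.047, 0.26, -0.18 and 0.056, and only conditioned-medium replicate 2 correlated best with the control library of its own number. With so few libraries this cannot settle whether same-numbered libraries share animals, which the labels do not state. With the replicate block 1 member and 69 genes were higher, and no transcript passed (0 higher, 0 lower).

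Genes higher and lower, 63 and 0 in the report, numbered 882 and 51 with array weights, 0 and 0 with the F test, 2 and 1 without control replicates 2 and 4, and 1 and 1 with the fibroblast covariate. With 1 library left out they ran from 31 to 110 higher and 0 to 2 lower, and members higher from 0 to 1. Genes lower numbered 1 with a pseudocount of 0.1, size factors or summed transcripts and 2 with quantile normalization. Transcripts higher and lower ran from 0 to 15 and 0 to 4 with 1 library left out. There were 5 transcripts higher with a pseudocount of 0.1, and 2 lower after rescaling to nuclear totals, which put the median of all genes at 0.10. Of the named genes of other lists, Dcn lost its call in 16 alternatives. Calls were gained by Lum in 6 of 19 alternatives, by Serpinb2 in 2, and by Plau, Adamts9, Lrp1 and Mmp13 in 1 each, with array weights. The difference of Serpinb2 was partly fixed by the filter, so its calls are no support. Low log2 fold changes turned their sign, Mmp11 at -0.12 and Itgb1 at -0.095 and Adam9 at -0.18 with the F test, Mmp23 at 0.068 with array weights and Itgb1 at -0.086 from summed transcripts. Without control replicates 2 and 4 they were -0.27 for Mmp11, -0.12 for Itgb1 and -0.16 for Adam9, and with the fibroblast covariate -0.34, -0.097 and -0.22. With 1 library left out they ran from -0.037 to 0.33 for Mmp11, -0.077 to 0.17 for Itgb1, -0.26 to 0.062 for Mmp23 and -0.12 to 0.29 for Adam9. Mmp8 and Reck gave no value at a minimum mean of 2 FPKM, nor Reck from summed transcripts.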
